A study of Mus musculus with 8 samples.

Results

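The 54 genes described here act in the G2 phase of the cell cycle and in mitosis, and they were taken by name from a fixed list. The rule for membership uses no measured value, although the list was drawn up with earlier results of these data known. They are 54 of 49585 annotated genes in a table of RNA-seq read counts from 8 male mouse livers, and 53 of them were among the 16496 genes that passed the filter on low counts. All 8 mice ate a high-fat, choline-deficient (HFCD) diet from day 21 of life and were on it for 3 months. The 3 LP245/+ mice carried Alb-CreTG and Trp53wm-R245W/+, an allele that encodes wild-type p53 until Cre converts it to the R245W missense mutant. The 2 LPfl/+ mice carried Alb-CreTG and Trp53fl/+, an allele that Cre deletes. The 3 LP+/+ mice were labelled Alb-Cre0, which by the labels leaves their conditional allele unrecombined. That allele was Trp53fl/+ in replicates 1 and 2 and Trp53wm-R245W/+ in replicate 3. The study's text instead describes LP+/+ mice as Alb-Cre carriers with wild-type p53, and its methods name littermates of either kind as controls. The labels were followed here. If they hold, LP+/+ livers differed from both other groups by the Cre transgene as well as by p53, and the effects of these cannot be told apart. Alb-Cre acts in hepatocytes and cholangiocytes from embryonic life onward, and every other liver cell kept 2 wild-type copies.

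Mitosis genes are switched on late in the cell cycle and are nearly silent in resting cells. In resting cells the DREAM complex sits on their promoters, often at a short element called the CHR, and represses them. In cycling cells B-MYB and FOXM1 take its place on the same core of proteins and activate the genes. p53 lowers many of them indirectly, through the cell-cycle inhibitor p21 and DREAM. Most hepatocytes of an adult liver do not divide, and the mitosis transcripts of a whole liver come from the small share of hepatocytes and other cells that do. In bulk tissue, fewer dividing cells and less RNA per dividing cell cannot be told apart.

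The letters of the CHR are shown because most of these promoters share them and the choice of genes did not use them. RefSeq promoters of GRCm38.p6, from 250 bases before to 50 bases after the start of the gene, were matched to 45 of the 54 members, with 49 promoters in all. The letters TTTGAA, on either strand, were in 36 of the 49 (73.5%) and in 17.9% of all 32851 promoters of the same length. Within 50 bases of the start they were in 32 of 49 (65.3%), against 4.94% of all promoters. The CCAAT box (CCAAT, either strand) was in 77.6% of member promoters and 37.4% of all, and GGCGG, the letters of a CDE-like element, in 89.8% and 48.8%. These letters were not particular to the members, since the 51 promoters of other mitosis genes held TTTGAA in 49.0%, CCAAT in 66.7% and GGCGG in 86.3%. The 120 bases before the start are printed for 6 members on the gene's own strand, with TTTGAA or its reverse complement TTCAAA in capitals. All 6 hold a match there, which is not typical of the members. Matches that begin after the start lie outside these bases, as in Ttk, at 7 bases after it. The fullest stretch of the member promoters was 0 to 24 bases from the start, with 28.6%. Mki67 (chr7:135716380-135716499, minus strand), Ckap2 (chr8:22185820-22185939, minus strand) and Kif22 (chr7:127042421-127042540, minus strand) had among the smallest p-values in the comparisons. Cdk1 (chr10:69352913-69353032, minus strand), Cdc20 (chr4:118437344-118437463, minus strand) and Ube2c (chr2:164769809-164769928, plus strand) stand for the mitotic kinase and for its shut-off.
Mki67: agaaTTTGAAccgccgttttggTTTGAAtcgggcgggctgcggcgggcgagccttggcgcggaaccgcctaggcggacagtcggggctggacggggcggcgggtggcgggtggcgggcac
Ckap2: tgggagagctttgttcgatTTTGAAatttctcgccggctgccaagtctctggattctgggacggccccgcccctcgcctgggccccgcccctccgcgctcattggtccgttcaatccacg
Kif22: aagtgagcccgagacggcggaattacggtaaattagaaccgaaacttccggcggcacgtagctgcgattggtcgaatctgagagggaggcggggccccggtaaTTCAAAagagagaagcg
Cdk1: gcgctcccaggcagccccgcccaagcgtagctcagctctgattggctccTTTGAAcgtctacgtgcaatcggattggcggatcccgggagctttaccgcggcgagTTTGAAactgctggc
Cdc20: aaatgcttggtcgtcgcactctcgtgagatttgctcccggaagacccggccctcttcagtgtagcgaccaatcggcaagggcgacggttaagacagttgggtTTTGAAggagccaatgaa
Ube2c: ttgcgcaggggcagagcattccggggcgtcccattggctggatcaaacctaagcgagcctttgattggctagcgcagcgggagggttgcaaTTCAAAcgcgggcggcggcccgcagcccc

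In Cdk1 the letters occurred at 2 places, with first bases 71 and 15 bases before the start. In Kif22, Cdc20 and Ube2c the match began 17, 18 and 29 bases before the start. In Mki67 and Ckap2 it lay farther upstream, at 116 and 98 bases in Mki67 and at 101 bases in Ckap2. A match is a description of the letters and not a measured binding site. Members with and without TTTGAA had alike median log2 fold changes in LPfl/+ compared with LP+/+, at -0.43 for 34 genes and -0.46 for 10 genes. In LP245/+ compared with LP+/+ the medians were -0.34 and -0.14. Aurkb, Ccna2, Cdca2, Foxm1, Incenp, Kif20a, Pbk, Smc4 and Tpx2 had no matched promoter and are in neither set, although some had among the lowest values below. TTCGAA, another form of the CHR letters, was in 10.2% of member promoters, 11.8% of those of other mitosis genes and 1.56% of all. A member with only that form, such as Bub1, counts here as without.

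**Figure D1:**
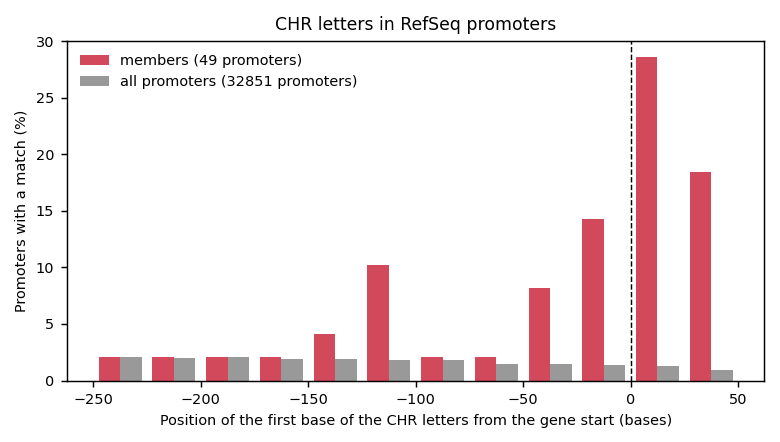
Share of promoters (%, y axis) in which the CHR letters TTTGAA or their reverse complement begin in each stretch of 25 bases (x axis, bases from the gene start), for 49 member promoters and all 32851 promoters. Members stand above the rest in the 4 stretches nearest the start, with a peak of 28.6% just after it against 1.31% of all promoters, and in the stretch from -125 to -101, with 10.2% against 1.83%.

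Mitosis transcripts were scarce in these livers. The 8 libraries held 26304526 to 31370714 counts, yet the median member had a mean of 30.8 counts per liver, and 23.1% of all genes tested had a lower mean than that. Of the members, 41 had a mean under 50 counts and 16 a mean under 20. Per kilobase of exon, the highest members were Smc4, at 2.97 CPM per kilobase (CPM, counts scaled to the same library size), Spc25 at 1.36, Aurka at 1.35 and Smc2 at 1.21. Ttk, at 0.0763, and Ndc80, at 0.0510, were among the lowest. Psrc1, a spindle protein, had 4, 5 and 1 counts in the LP+/+ group, against 2 and 4 for LPfl/+ and 0, 3 and 0 for LP245/+, did not pass the filter and was not tested. Of the 54 gene spans, 20 overlap an annotated gene on the other strand and 12 a gene on the same strand, and the strand counted was not given in the sources used here. Mki67 (Gm45240), Kif22 (Gm31749) and Ccna2 (Exosc9) are among the former. Whole spans were compared, introns included, and whether reads of the partner entered their counts was not tested.

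Summed over the 54 members, the level was 110, 109 and 107 CPM in the LP+/+ livers, 84.8 and 85.9 CPM in LPfl/+ and 80.1, 93.9 and 102 CPM in LP245/+. Every LP+/+ liver was above every LPfl/+ and LP245/+ liver. The group means were 109 ± 1.57 CPM (SD, n = 3), 85.3 ± 0.805 (SD, n = 2) and 91.9 ± 10.9 (SD, n = 3). The LP+/+ and LPfl/+ livers were tight within their groups, while the LP245/+ livers ran from below both LPfl/+ livers to near LP+/+. Gene by gene, the LP245/+ livers stood in the same order among themselves. LP245/+ replicate 1 had the lowest value of the 8 livers for 14 of 53 members and the highest for none, and LP245/+ replicate 3 had the highest for 8 and the lowest for 4. Of the 53 members, 41, 32 and 42 were above the median of the 8 livers in the LP+/+ livers, 19 and 13 in LPfl/+, and 9, 23 and 33 in LP245/+. By that count LP245/+ replicate 3 stood just above LP+/+ replicate 2, unlike in the sums. Members of one liver share its dividing cells and are not independent replicates.

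**Figure D2:**
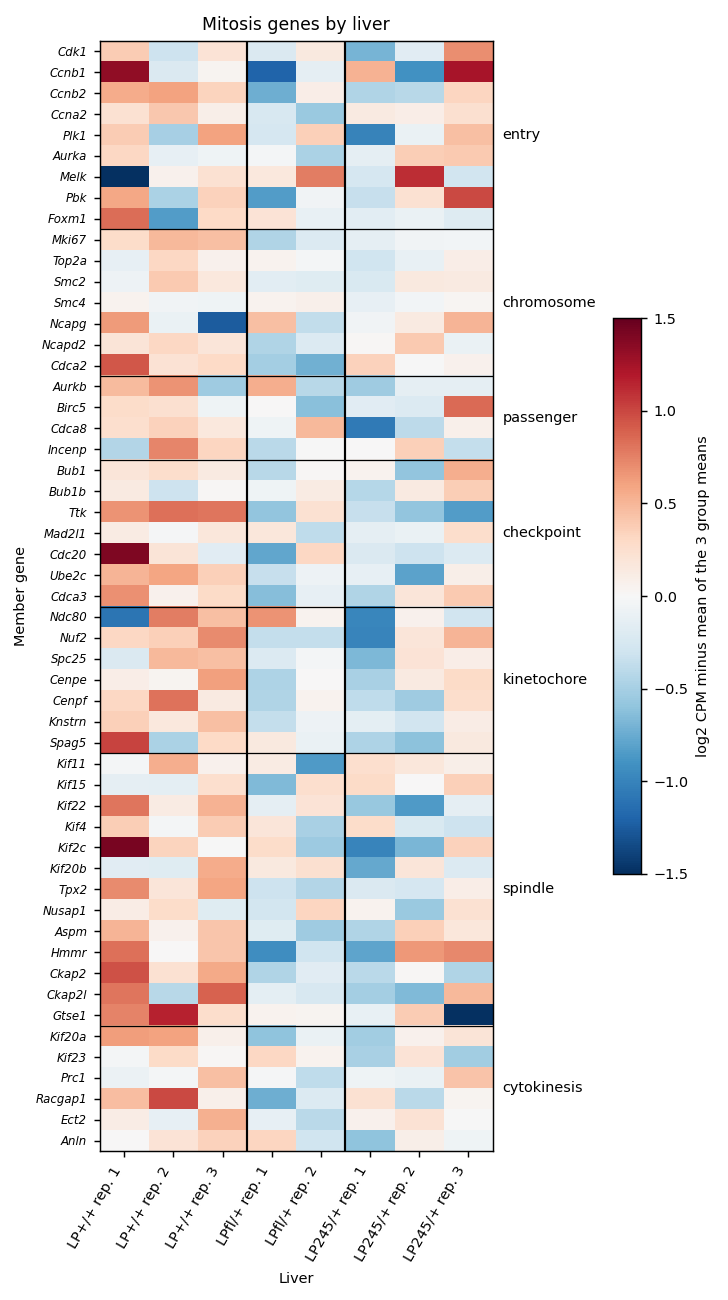
Heat map of 53 members (rows, grouped by role) in the 8 livers (columns). Colour gives log2 CPM minus the mean of the 3 group means, with the scale cut at 1.5 in either direction, and most rows are red in the LP+/+ columns and blue in LPfl/+ and in LP245/+ replicate 1.

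Whether the loss of an allele and the R245W mutation lower these genes alike was asked with edgeR's quasi-likelihood F test (two-sided) on the counts of all 8 livers. A gene was called if its log2 fold change was 1 or more in size and its Benjamini-Hochberg adjusted p, taken over the 16496 genes, was 0.05 or less. No member was called in any of the 3 comparisons. The background was 0.00606% of genes called in LP245/+ compared with LP+/+, where the called gene was Cdkn1a, which encodes p21, and 0% for LPfl/+ against LP+/+ as well as for LP245/+ against LPfl/+. The lowest adjusted p of a member was 0.795, 0.697 and 0.584 in these comparisons, from the edgeR test. What follows is therefore below the call threshold and is given as values.

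In LPfl/+ compared with LP+/+ livers, 46 of the 53 members had a lower value and 7 a higher one, against 50.2% of all genes lower and 49.8% higher. The median log2 fold change of the members was -0.47, a fold of 0.723, with a range of -1.17 to 0.83. The median over all genes was 0.00. An unadjusted p under 0.05 was reached by 9 members on the lower side (17.0%, with 2.67% of all genes) and by 0 on the higher side (with 4.22% of all genes). The 9 were Mki67, Cdca2, Tpx2, Ckap2, Racgap1, Ncapd2, Ccna2, Kif20a and Aspm. Both LPfl/+ livers were below all 3 LP+/+ livers for 22 members (41.5%, with 12.4% of all genes) and above them for 1, Smc4, with 12.6% of all genes. Without LPfl/+ replicate 1, which leaves a single LPfl/+ liver assumed to vary like the other groups, the median was -0.49.

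In LP245/+ compared with LP+/+ livers, again 46 of 53 members were lower and 7 higher, against 49.4% of all genes lower. Their median log2 fold change was -0.33, a fold of 0.796, with a range of -1.41 to 0.68, and the median over all genes was 0.00. The 6 members on the lower side at an unadjusted p under 0.05 (11.3%, with 2.38% of all genes) were Ttk, Mki67, Kif22, Ckap2, Tpx2 and Ube2c. There were 0 on the higher side, with 3.55% of all genes. All 3 LP245/+ livers were below all 3 LP+/+ livers for 10 members (18.9%, with 5.08% of all genes), namely Ccnb2, Mki67, Cdca8, Ttk, Cdc20, Ube2c, Knstrn, Kif22, Tpx2 and Ckap2, and above them for 0, with 6.47% of all genes. These counts moved with the liver left out, and so did the share of all genes. Without LP245/+ replicate 1 the median was -0.13. There, 4 members were lower at an unadjusted p under 0.05, with 1.66% of all genes. Without LP245/+ replicate 3 the median was -0.44 with 11 such members, with 3.51% of all genes. Without LP+/+ replicate 1 there were 3, with 2.53% of all genes.

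The comparisons with LP+/+ share the same 3 control livers, so their values are set side by side and the direct test is that of LP245/+ against LPfl/+. In that comparison 19 members were lower and 34 higher, with 49.2% of all genes lower and 50.8% higher. That direction was not stable, since 27 of 53 were lower without LP245/+ replicate 3 (median -0.01) and 26 with unscaled library totals (median 0.03, all genes -0.07). The median log2 fold change was 0.10, a fold of 1.07, with a range of -0.76 to 1.14. No member had an unadjusted p under 0.05 in either direction in the edgeR fit or in DESeq2, while 4.44% of all genes were lower and 4.07% higher at that level in edgeR. Groups did not overlap for 6 members higher in LP245/+ (Ccna2, Mki67, Ncapd2, Cdca2, Tpx2 and Ect2, with 12.1% of all genes higher) and for 2 lower (Smc4 and Kif22, with 13.3% of all genes lower). This does not show that the alleles act alike, because the 95% intervals were wide. Their median half-width was 0.80 on the log2 scale, and for 21 of the 53 members the whole interval lay between -1 and 1, so a difference of 2-fold between the alleles was within the interval for the other 32.

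**Figure D3:**
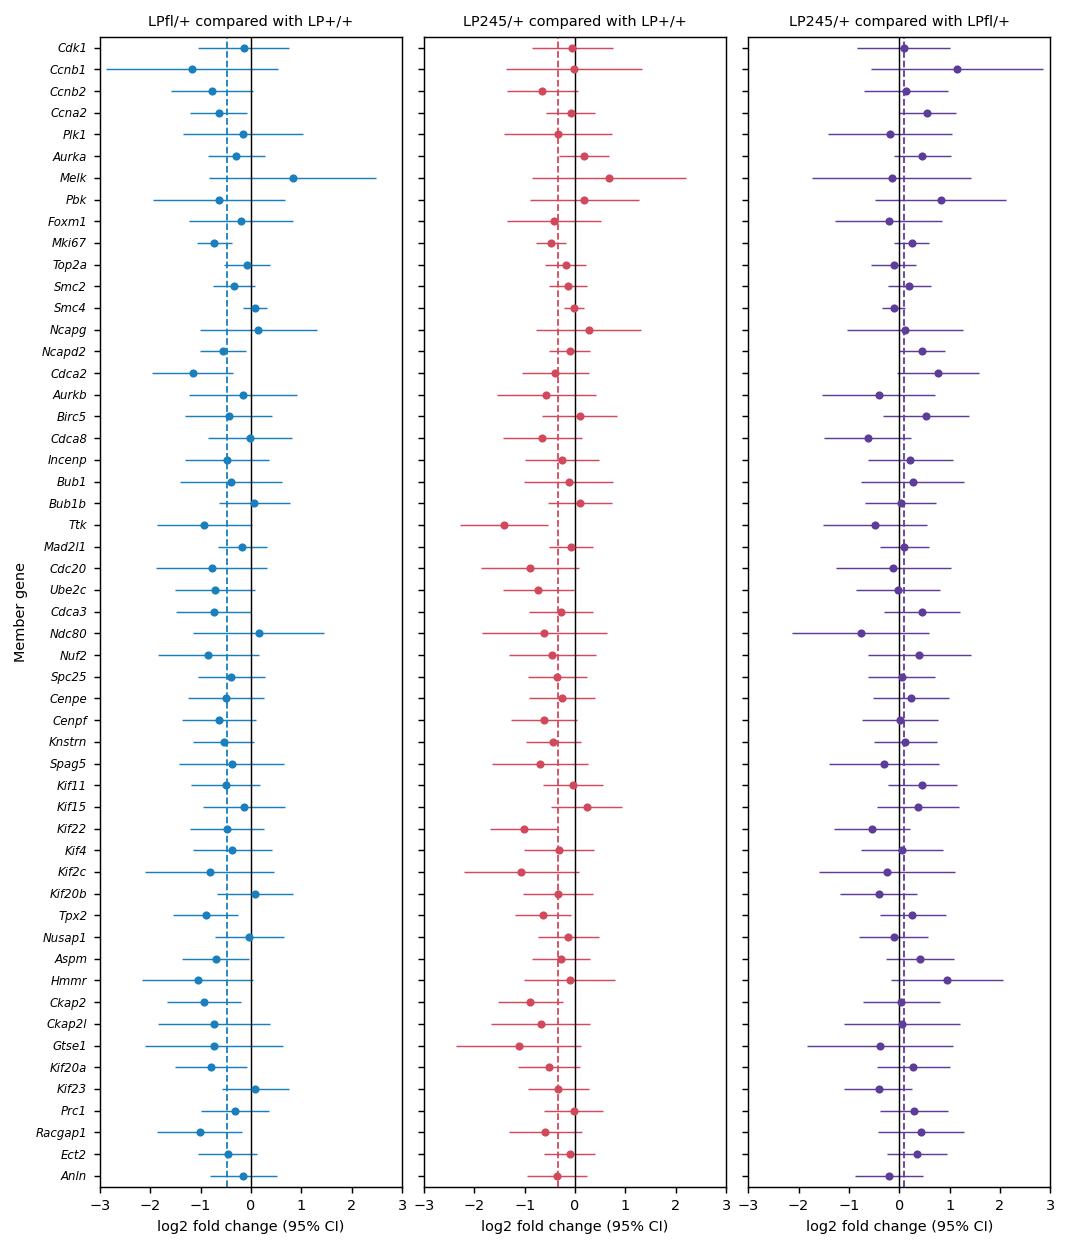
Log2 fold change (x axis) with its 95% confidence interval for each of 53 members (y axis, ordered by role) in 3 comparisons, with a dashed line at the median of the members. The medians stand at -0.47 for LPfl/+ and -0.33 for LP245/+ against LP+/+, and at 0.10 between LP245/+ and LPfl/+, where no interval leaves out 0.

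Entry into mitosis is driven by cyclin-dependent kinase 1 and its cyclins. The 9 members of this group had median log2 fold changes of -0.29 in LPfl/+ and -0.06 in LP245/+ against LP+/+. Cdk1, the kinase itself, had 53, 33 and 48 counts across the LP+/+ livers, with 33 and 43 for LPfl/+ and 23, 34 and 63 for LP245/+. Ccnb1, its main cyclin, had 27, 9 and 11 counts in the LP+/+ group, against 4 and 9 for LPfl/+ and 14, 5 and 24 for LP245/+. For both genes the groups overlapped. Ccnb1 had a log2 fold change of -1.17 in LPfl/+ against LP+/+, with overlapping counts, and this value ran from -1.86 without LPfl/+ replicate 2 to -0.51 without LP+/+ replicate 1. The largest value between the 2 alleles was that of Ccnb1, whose log2 fold change from LPfl/+ to LP245/+ was 1.14, with a 95% interval of -0.57 to 2.85, and it ran from 0.56 without LP245/+ replicate 3 to 1.83 without LPfl/+ replicate 2. Ccnb2, a further B-type cyclin, had 42, 44 and 37 counts across the LP+/+ livers, with 16 and 29 for LPfl/+ and 19, 20 and 34 for LP245/+. All 3 LP+/+ livers were above the other 5, and the log2 fold changes were -0.77 ± 0.36 (SE) in LPfl/+ and -0.65 ± 0.32 in LP245/+.

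Ccna2, cyclin A2, which acts from S phase into mitosis, had 44, 50 and 41 counts in the LP+/+ group, against 30 and 24 for LPfl/+ and 38, 38 and 42 for LP245/+. Its LP245/+ values lay with LP+/+ and above both LPfl/+ livers. The log2 fold change was -0.64 ± 0.25 (SE) in LPfl/+ and -0.09 ± 0.22 in LP245/+ against LP+/+, and 0.56 in LP245/+ compared with LPfl/+ (95% interval -0.01 to 1.12, edgeR adjusted p = 0.584). It had the smallest p of all members between the alleles. Aurka, a kinase of the spindle poles, had 120, 89 and 95 counts across the LP+/+ livers, with 90 and 66 for LPfl/+ and 81, 118 and 120 for LP245/+. Its log2 fold changes were -0.29, 0.17 and 0.46 in LPfl/+ and LP245/+ against LP+/+ and between the alleles. Plk1, a kinase needed at several steps of mitosis, had 15, 8 and 18 counts in the LP+/+ group, against 9 and 14 for LPfl/+ and 5, 10 and 15 for LP245/+. Foxm1, the transcription factor that activates many of these genes, had 33, 10 and 23 counts, 20 and 16, and 15, 16 and 15 in the same order. The groups overlapped for Aurka, Plk1 and Foxm1. The kinase genes Melk and Pbk had means of 7.25 and 10.8 counts and were too shallow for any but large differences.

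Chromosome structure had 7 members, with median log2 fold changes of -0.34 in LPfl/+ and -0.14 in LP245/+ against LP+/+. Mki67 (ENSMUSG00000031004.8, chromosome 7 of GRCm38, 135689784 to 135716361) encodes Ki-67, which coats mitotic chromosomes and marks dividing cells. It had 238, 279 and 277 counts across the LP+/+ livers, with 137 and 163 for LPfl/+ and 166, 180 and 182 for LP245/+. Every LP+/+ liver was well above the other 5, and every LP245/+ liver was slightly above both LPfl/+ livers. The log2 fold change was -0.73 ± 0.15 (SE) in LPfl/+ (edgeR adjusted p = 0.697) and -0.48 ± 0.13 in LP245/+ (adjusted p = 0.795). Between the alleles it was 0.25, with a 95% interval of -0.10 to 0.59. Cdca2 (ENSMUSG00000048922.18, chromosome 14, 67676331 to 67715841), a subunit that brings a phosphatase to chromatin as mitosis ends, had 41, 25 and 27 counts in the LP+/+ group, against 14 and 12 for LPfl/+ and 25, 20 and 21 for LP245/+. Both LPfl/+ livers were below all others. Its log2 fold changes were -1.16 ± 0.36 in LPfl/+ and -0.39 ± 0.30 in LP245/+, and 0.77 between the alleles (95% interval -0.04 to 1.58).

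Condensins, which compact chromosomes, were uneven. Ncapd2, a condensin subunit, had 136, 148 and 138 counts across the LP+/+ livers, with 82 and 98 for LPfl/+ and 111, 148 and 105 for LP245/+. LPfl/+ was below every other liver, and the log2 fold changes were -0.55, -0.11 and 0.45 in LPfl/+ and LP245/+ against LP+/+ and between the alleles. Smc4, the condensin ATPase with the most counts of any member, had 475, 446 and 448 counts, 451 and 459, and 389, 419 and 442, with a mean of 15.3 CPM in LP+/+ and 16.3 CPM in LPfl/+. Top2a, the topoisomerase that untangles sister chromatids, had 111, 151 and 130 counts, 119 and 113, and 91, 106 and 123, and its groups overlapped. Within this role the values thus ran from Mki67, lower in all 5 livers with an altered allele, to Smc4, which was a little higher in both LPfl/+ livers than in LP+/+.

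The chromosomal passenger complex, in which Aurora kinase B corrects faulty spindle attachments, had 4 members, with median log2 fold changes of -0.30 in LPfl/+ and -0.41 in LP245/+. Aurkb had 18, 21 and 9 counts in the LP+/+ group, against 18 and 9 for LPfl/+ and 8, 11 and 11 for LP245/+. Birc5, survivin, had 46, 45 and 37, then 36 and 23, then 31, 31 and 65 counts. Incenp, the scaffold, had 31, 71 and 54, then 30 and 40, then 39, 51 and 31 counts. None of these 3 genes separated the groups, and LP245/+ replicate 3 held the highest Birc5 count of all livers.

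The spindle checkpoint delays anaphase until every chromosome is attached, and once it is silenced Cdc20 and Ube2c drive the exit from mitosis with the anaphase-promoting complex. The 7 members had medians of -0.71 in LPfl/+ and -0.28 in LP245/+. Ttk (ENSMUSG00000038379.15, chromosome 9, 83834689 to 83872389), the kinase that starts the checkpoint signal, had 16, 18 and 18 counts across the LP+/+ livers, with 6 and 11 for LPfl/+ and 7, 6 and 5 for LP245/+. All 5 livers with an altered allele were below the 3 LP+/+ livers. It had the lowest log2 fold change of any member in LP245/+, at -1.41 ± 0.39 (SE) (edgeR adjusted p = 0.795), and -0.93 ± 0.42 in LPfl/+. Ube2c, the ubiquitin-conjugating enzyme of the complex, had 27, 29 and 25 counts, 14 and 17, and 16, 10 and 19. It also separated LP+/+ from the rest, with log2 fold changes of -0.71 in LPfl/+ and -0.74 in LP245/+.

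Cdc20, the activator of the complex, had 88, 38 and 30 counts in the LP+/+ group, against 18 and 39 for LPfl/+ and 26, 25 and 27 for LP245/+, and LP+/+ replicate 1 alone stood far above the others. The checkpoint kinase Bub1 had 13, 14 and 13 counts, 8 and 11, and 11, 7 and 16. Bub1b, which encodes BubR1, had 34, 25 and 32, then 28 and 32, then 21, 32 and 38 counts. Mad2l1, which encodes Mad2, had 145, 133 and 154, then 142 and 97, then 112, 117 and 152 counts. LPfl/+ lay below LP+/+ for Bub1, and all groups overlapped for Bub1b and Mad2l1.

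Kinetochore genes build the attachment site on the centromere. All 7 were lower in LP245/+ (median -0.45) and 6 of 7 in LPfl/+ (median -0.49). Ndc80, which binds microtubules, had only 4, 16 and 13 counts across the LP+/+ livers, with 14 and 9 for LPfl/+ and 4, 9 and 7 for LP245/+. Cenpe, a kinetochore motor, had 36, 35 and 53, then 23 and 32, then 22, 35 and 39 counts. Cenpf, a large outer kinetochore protein, had 63, 90 and 57, then 35 and 50, then 36, 33 and 58 counts. LPfl/+ lay below LP+/+ for Cenpe and Cenpf, and LP245/+ overlapped LP+/+ for both. Knstrn, a partner of the spindle protein astrin, separated LP+/+ from all 5 other livers.

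Spindle motors and spindle assembly factors were the largest role, with 13 of 14 genes tested and medians of -0.69 in LPfl/+ and -0.33 in LP245/+. Tpx2 (ENSMUSG00000027469.16, chromosome 2, 152847964 to 152895321), which activates Aurora A on the spindle, had 52, 36 and 49 counts in the LP+/+ group, against 24 and 22 for LPfl/+ and 25, 25 and 32 for LP245/+. Ckap2 (ENSMUSG00000037725.8, chromosome 8, 22168160 to 22185819), a stabiliser of spindle microtubules, had 51, 31 and 40 counts, 18 and 22, and 18, 25 and 18. In both genes the LP+/+ livers were above all others. The log2 fold changes of Tpx2 were -0.90 ± 0.29 (SE) in LPfl/+ and -0.63 ± 0.25 in LP245/+, with 0.26 between the alleles, and those of Ckap2 were -0.93 ± 0.33 and -0.89 ± 0.29.

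Kif22 (ENSMUSG00000030677.8, chromosome 7, 127027729 to 127042471), a chromosome-bound motor, had 51, 32 and 43 counts across the LP+/+ livers, with 25 and 32 for LPfl/+ and 18, 15 and 25 for LP245/+. LP245/+ was below LP+/+ in every liver, while LPfl/+ overlapped LP+/+ and lay just above LP245/+. The log2 fold changes were -0.47 ± 0.33 (SE) in LPfl/+, -1.01 ± 0.30 in LP245/+ (edgeR adjusted p = 0.795) and -0.54 between the alleles (95% interval -1.30 to 0.22). Hmmr, a hyaluronan receptor that also acts on the spindle, had 44, 25 and 34 counts, 12 and 19, and 13, 37 and 39. LP245/+ replicate 1 lay with LPfl/+ and replicates 2 and 3 with LP+/+, and the log2 fold change was -1.05 in LPfl/+ and 0.94 between the alleles (95% interval -0.17 to 2.05). Kif11, the motor that separates the spindle poles, had 71, 107 and 78, then 75 and 38, then 80, 77 and 73 counts, with overlap of all groups.

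Cytokinesis, the division of the cell body, had 6 members, with medians of -0.39 in LPfl/+ and -0.34 in LP245/+. Racgap1 (ENSMUSG00000023015.13, chromosome 15, 99620496 to 99651656), part of the centralspindlin complex, had 37, 54 and 29 counts in the LP+/+ group, against 15 and 22 for LPfl/+ and 29, 19 and 26 for LP245/+. Its log2 fold changes were -1.02 ± 0.38 (SE) in LPfl/+ and -0.59 ± 0.32 in LP245/+, and 0.43 between the alleles. Kif20a, a motor of the central spindle, had 63, 62 and 44, then 25 and 36, then 26, 40 and 44 counts. LPfl/+ was below LP+/+ for both genes, and the log2 fold changes of Kif20a were -0.79 in LPfl/+, -0.52 in LP245/+ and 0.28 between the alleles, where the value was 0.04 without LPfl/+ replicate 1 and 0.57 without replicate 2. Prc1, which bundles midzone microtubules, had 36, 38 and 54, then 36 and 28, then 34, 34 and 49 counts. Anln, anillin of the contractile ring, had 43, 50 and 56, then 51 and 33, then 26, 43 and 39 counts. The groups overlapped for Prc1 and Anln.

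**Figure D4:**
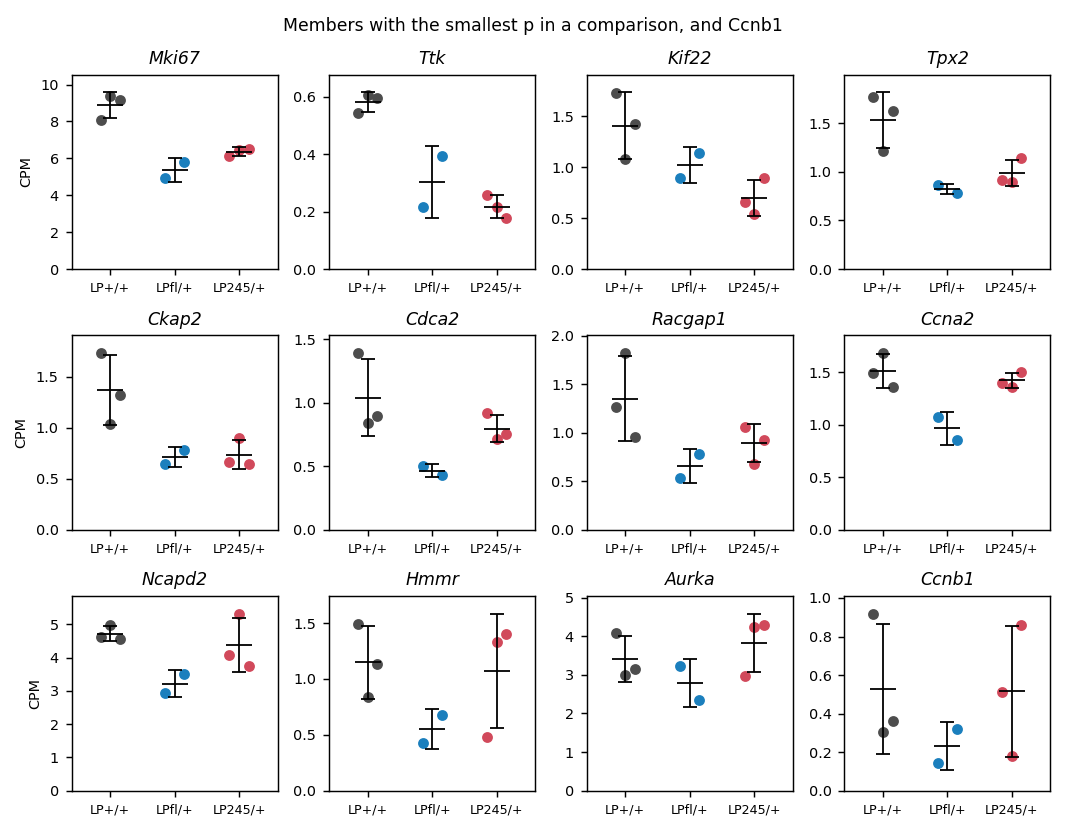
CPM (y axis, from 0) of 12 members in each liver (points) by genotype (x axis), with the group mean and SD as bars. Mki67, Ttk, Tpx2 and Ckap2 have all LP+/+ points above the others. Ccna2 and Ncapd2 have both LPfl/+ points below all others, and Hmmr and Ccnb1 spread widely within LP245/+.

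Across the list, 7 members had all 3 LP+/+ livers above all 5 livers with an altered allele, namely Ccnb2, Mki67, Ttk, Ube2c, Knstrn, Tpx2 and Ckap2 (13.2%, with 1.81% of all genes). None had the reverse, with 2.54% of all genes. The median of a role was more negative in LPfl/+ than in LP245/+ for 6 of 7 roles, with the passenger group the exception. These differences between medians were not tested.

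The library numbers in the labels fall into 2 runs of consecutive numbers, and what the runs stand for is not stated. LP+/+ replicate 1 and both LPfl/+ livers were in the later run, and the other 5 livers in the earlier one. The first principal component, with 31.1% of the variance, separated the runs. Within the earlier run, 41 of 53 members were lower in the 3 LP245/+ than in the 2 LP+/+ livers, with a median log2 ratio of -0.27 (all genes 0.02). Within the later run, 43 of 53 were lower in the 2 LPfl/+ livers than in the single LP+/+ liver, with a median of -0.55 (all genes 0.01). LP245/+ and LPfl/+ shared no run, so allele and run cannot be told apart between them without the LP+/+ livers as a bridge. With the run as a covariate, 3 members in place of 6 had an unadjusted p under 0.05 on the lower side in LP245/+ against LP+/+. The share of all genes was 2.52% in place of 2.38%. Mki67 was then at -0.55 in LP245/+ and -0.59 in LPfl/+, and 0.05 between the alleles. In that edgeR fit 5 members had an unadjusted p under 0.05 between the alleles, chosen here after their values were seen, which were Ccnb1, Aurka, Cdca2 and Cdc20 higher and Ndc80 lower in LP245/+. In the same fit 2.58% of all genes were higher and 2.70% lower at that level. Their adjusted p was 0.790 or more.

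Other genes of the cell cycle were given the same counts. Of 58 further mitosis genes outside the list, 45 were tested, and the medians were -0.15 in LPfl/+, with 31 lower, and -0.13 in LP245/+, with 28 lower. At an unadjusted p under 0.05, 2 were lower and 2 higher in LPfl/+, 1 was lower and 2 higher in LP245/+, and between the alleles 0 were lower and 4 higher in LP245/+. The shares of lower genes, 4.44% in LPfl/+ and 2.22% in LP245/+, stood beside 2.67% and 2.38% of all genes. On the higher side, all genes stood at 4.22% in LPfl/+ and 3.55% in LP245/+. Between the alleles, 4.07% of all genes were higher and 4.44% lower in LP245/+. Cdc25b, the phosphatase that activates CDK1, had 64, 51 and 42 counts in the LP+/+ livers, then 23 and 18 for LPfl/+ and 34, 34 and 45 for LP245/+. Shcbp1, a protein of the midbody, had 19, 22 and 26, then 7 and 6, then 9, 12 and 19 counts. For both genes the LPfl/+ livers were below all others, with log2 fold changes in LPfl/+ of -1.26 for Cdc25b and -1.67 for Shcbp1, and of 0.89 and 1.04 between the alleles (edgeR adjusted p = 0.484 and 0.583). Sgo1, which guards the cohesion of centromeres, had 8, 8 and 8 counts, 17 and 15, and 23, 19 and 19, and so stood higher in all 5 livers with an altered allele. Its log2 fold change was 1.08 in LPfl/+ and 1.44 in LP245/+ (edgeR adjusted p = 0.697 and 0.795).

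Genes of DNA replication and of the anaphase-promoting complex had medians nearer 0 than the members in the comparisons with LP+/+. The 22 S-phase genes tested had medians of -0.13 in LPfl/+ (16 lower) and 0.01 in LP245/+ (10 lower), and between the alleles 19 of 22 were higher in LP245/+, with a median of 0.16, which was more than that of the members. Rrm2, a subunit of ribonucleotide reductase, had 166, 130 and 183 counts in the LP+/+ livers, then 104 and 112 for LPfl/+ and 166, 145 and 167 for LP245/+. Its LPfl/+ values were below all others, and the log2 fold change between the alleles was 0.58 (edgeR adjusted p = 0.467). Pola1, a DNA polymerase subunit, and the licensing factor Cdt1 were the other S-phase genes of smallest p, and both were highest in an LPfl/+ liver, with 318 and 70 counts. The 20 genes of the anaphase-promoting complex and its regulators had medians of -0.02 and -0.01, with 11 and 12 lower. Of these Mad1l1, Anapc16 and Fbxo5 had the smallest p, and 1, Mad1l1, was lower in LP245/+ at an unadjusted p under 0.05. The 19 genes of DREAM, RB and E2F had medians of -0.07 and -0.05, with 11 lower in either. Cdkn1a, Tfdp2 and Lin52 led them by p.

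Cdkn1a had 195, 144 and 195 counts in the LP+/+ group, against 74 and 99 for LPfl/+ and 14, 25 and 27 for LP245/+. Its log2 fold change was -0.95 in LPfl/+ (edgeR adjusted p = 0.697), -2.91 in LP245/+ (adjusted p = 0.0155) and -1.96 between the alleles (adjusted p = 0.321). The call in LP245/+ was lost with the replicate number as a block, at a log2 fold change of -2.93, without LP+/+ replicate 3, at -2.85, and without LP245/+ replicate 2. The value stayed between -3.09 and -2.68 over all livers left out. Between the alleles it was called by DESeq2, without the filter on low counts, in a fit of only these groups and without LP+/+ replicate 1. The summed members had group means of 85.3 CPM in LPfl/+ and 91.9 CPM in LP245/+, and the lowest single liver was LP245/+ replicate 1, at 80.1 CPM. A relation of the members to Cdkn1a was not tested.

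Markers of other cells that could hold dividing or recently dividing cells were counted beside these values. The 6 erythroid markers, which include the globins, summed to 464 to 652 CPM in LP+/+, 335 to 432 in LPfl/+ and 315 to 624 in LP245/+. The 5 B and plasma cell markers summed to 4.45 to 5.76, 3.82 to 4.12 and 3.45 to 8.23 CPM, and the 9 T and NK cell markers to 3.21 to 7.37, 4.96 to 5.80 and 2.62 to 5.51. The sums of erythroid and B cell markers were thus lower in both LPfl/+ livers than in every LP+/+ liver, in the same direction as the members. Gene by gene, 5 of 6 erythroid and 4 of 5 B and plasma cell markers were lower in LPfl/+, with 50.2% of all genes. In each of these lists 1 marker was higher. Their part in the result was not tested. The 11 macrophage markers summed to 414 to 488, 409 to 534 and 372 to 446 CPM, and 10 of 11 were lower in LP245/+ than in LP+/+ (median -0.16). Of 6 neutrophil and myeloid precursor markers, which summed to 1.49 to 1.89, 2.72 to 2.86 and 1.62 to 2.25 CPM, Ly6g was at 0 in every liver. The 8 hepatocyte markers summed to 103000 to 149000, 103000 to 111000 and 107000 to 124000 CPM, and so were abundant in every liver, and 7 of 8 were lower in LPfl/+ than in LP+/+ (median -0.25). The part of these in the members' values was not tested. The 5 endothelial markers were at 306 to 402, 250 to 339 and 358 to 386 CPM, the 6 stellate cell markers at 507 to 556, 428 to 531 and 521 to 545, and the 5 cholangiocyte markers at 29.6 to 35.3, 27.2 to 40.2 and 23.3 to 34.3. In LPfl/+ compared with LP+/+, 4 of 5 endothelial (median -0.20) and 4 of 5 cholangiocyte markers (median -0.09) were lower too. So were 3 of 6 stellate cell, 6 of 11 macrophage and 3 of 6 tested T and NK cell markers. The 2 neutrophil and myeloid precursor markers tested were higher. The 12 clock genes, which follow the hour of sampling, summed to 310 to 415 CPM in LP+/+, 359 to 385 in LPfl/+ and 435 to 579 in LP245/+. They did not move together. In LP245/+ compared with LP+/+, 9 were higher and 3 lower, with log2 fold changes from -1.69 to 2.09 (median 0.65). Between the alleles 9 were higher and 3 lower in LP245/+, from -2.03 to 3.07 (median 0.87). In LPfl/+ compared with LP+/+, 8 were lower (median -0.19). The part of this in the members' values was not tested.

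**Figure D5:**
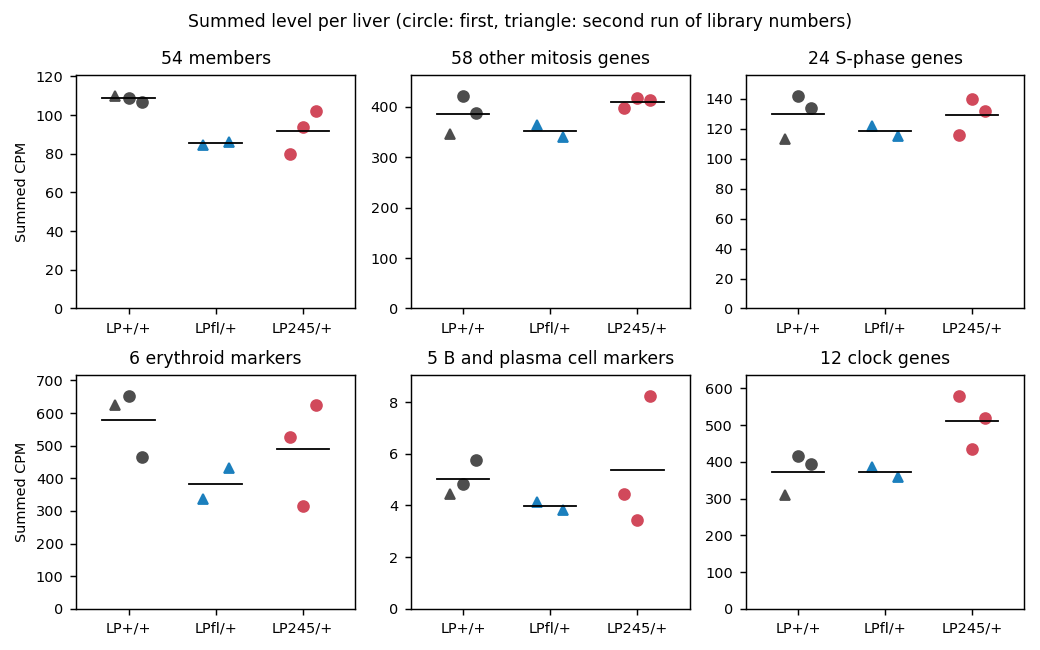
Summed CPM (y axis, from 0) of 6 gene lists in each liver (points) by genotype (x axis), with a line at the group mean and the symbol giving the run of library numbers. The 54 members are highest in the 3 LP+/+ livers, erythroid markers are low in LPfl/+, and the sum of the clock genes, which did not all move in one direction, is highest in LP245/+.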

How the data were processed

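Whole-liver RNA was sequenced by the authors (TruSeq Stranded Total RNA, paired ends), aligned with STAR to GRCm38 and deposited as raw read counts per GENCODE gene. The annotation release and the strand counted were not given in the sources used here. Identifiers were matched without their version to GENCODE M21 for symbols and exon lengths. Counts were analysed in edgeR 4.0.16 (R 4.3.3, limma 3.58.1) with filterByExpr, TMM scaling and quasi-likelihood F tests in a single fit of all 8 livers by genotype. Standard errors were derived from the F statistic, and 95% intervals from its degrees of freedom. CPM used TMM-scaled library sizes. DESeq2 1.42.0 was an alternative. The fits were tested on simulated data. Intervals and SDs cover these livers, of which each was labelled as a separate sample. Total counts differed at most 1.19-fold. The lowest chi-square per gene over 28 pairs of livers was 19.0, far above sampling noise, and all 8 livers were counted as separate. The members and lists were chosen with earlier results of these data known. Values in every liver are given for a fixed set of 26 members and for the 5 with the smallest p in each comparison, 32 in all, and outside the list Cdkn1a and the 3 genes of smallest p in each other cell-cycle list are named. Replicate numbers came from the titles and were not taken to pair livers. Motifs were searched in RefSeq promoters of GRCm38.p6 in Python 3.11.15 with pandas 2.3.3, and figures used matplotlib 3.10.9.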

Additional observations from a re-analysis of the deposited data

How the results depend on the processing

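No member passed the cutoff under any of the alternatives run, with DESeq2, DESeq2 size factors, library totals, other filters, only the groups compared, the run of library numbers, no fold cutoff or any liver left out. With the run as a covariate, 3 members in place of 6 had an unadjusted p under 0.05 on the lower side in LP245/+ compared with LP+/+, and 1 in place of 0 in LP245/+ compared with LPfl/+. The shares of all genes were 2.52% in place of 2.38% and 2.70% in place of 4.44%. On the higher side of LP245/+ compared with LPfl/+ there were 4 in place of 0 with the run (2.58% of all genes in place of 4.07%). With at least 10 counts in every liver there were 2 (4.25%), and 1 without a filter (3.07%) or with the replicate block (3.94%). Leaving out livers gave 0 to 2, the latter without LP245/+ replicate 1 (2.93%). The cause was not tested. Leaving out livers in turn gave 3 (without LP+/+ replicate 1) to 11 (without LP245/+ replicate 3) such members in LP245/+ compared with LP+/+, 5 (without LPfl/+ replicate 1) to 12 (without LP245/+ replicate 1) against 9 in LPfl/+ compared with LP+/+, and 0 to 1 (without LP245/+ replicate 2 or 3) in LP245/+ compared with LPfl/+. The medians ranged from -0.44 to -0.13 (without LP245/+ replicate 1), from -0.52 to -0.42 and from -0.01 (without LP245/+ replicate 3) to 0.24 (without LP245/+ replicate 1) in the same order. Deviations from the group mean had r from -0.082 to 0.034 over 7 pairs of same-numbered livers, against -0.112 to 0.085 over 14 other pairs. With so few livers per group these values could not exclude a pairing. With the replicate number as a block the medians were -0.33, -0.38 and 0.05, with 6, 7 and 0 members at an unadjusted p under 0.05 on the lower side. The shares of all genes there were 2.22%, 2.77% and 3.31%. Of 96 fold changes of the 32 named members, 37 changed sign under at least 1 alternative. None of the 39 given in the text did, but these are a chosen part of the 96. Their stable sign is therefore no evidence that the members as a set are robust. With DESeq2 the counts on the lower side were 4, 7 and 0, with 1.21%, 1.52% and 2.01% of all genes. The median SE of a member was 0.31, 0.35 and 0.36, against 0.18, 0.20 and 0.20 over all genes.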
